A study of Mus musculus with 2 samples.

Results

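Between positions 7490000 and 7570000 of mouse chromosome X (build mm9), an 80.0 kb window placed at the Gata1 gene, NF-E2 p45 of megakaryocytes had 4 of the 1651 peaks in the whole list. The members are all peaks that overlap the window. The window itself was chosen by the positions and scores of the peaks in this list, so both are given here as a description, with no test. The peak list carries no gene names and no gene annotation of mm9 was used here, so the name of the window was not checked against its sequence, and whether a peak lies on an exon, an intron, the promoter or an upstream enhancer of Gata1 was not analysed here.

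The series consists of 1 chromatin immunoprecipitation library, in which the antibody was against p45, and 1 input library, for which no antibody was used, so no peak has a replicate check. Both came from primary megakaryocytes of wild-type C57BL6 mice, grown from whole fetal livers of embryonic day 13.5 in 50 ng/ml thrombopoietin and harvested on day 3 of culture. The labels give no step that purified megakaryocytes from the other cells of the culture, and they do not say how many fetuses were pooled. A peak here is a stretch that the authors' peak caller, MACS, marked as holding more reads in the p45 library than its background. Tag counts are not among the columns of the list, so the depth behind each peak is unknown. Each peak has 1 score, which is the authors' own value and was read as 10 times −log10 of a p-value. A higher score means a lower p-value against the caller's background, and a ratio of scores is not a ratio of binding.

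NF-E2 is a dimer of p45, a basic leucine zipper protein found mainly in blood cells, and a small Maf protein. It binds a motif that contains the core recognised by AP-1 factors, and megakaryocytes need it to form platelets. Gata1 encodes a zinc finger transcription factor that red cell precursors and megakaryocytes need to mature. Transcription of Gata1 in blood cells is known to depend on elements upstream of the gene and in its first intron, as well as on the promoter of its blood-cell first exon.

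In RefSeq's GRCm38.p6, a later mouse build used here for gene names and order only, the protein-coding genes next to Gata1 are Hdac6 on the side of lower coordinates and Glod5 on the side of higher coordinates. Hdac6 encodes a deacetylase of tubulin and other cytoplasmic proteins. Models of 2 other genes, Gm39488 and Gm52419, overlap Gata1 there. The gene is on the minus strand of that build, so its upstream side faces higher coordinates and Glod5. Whether the orientation is the same on mm9 was not checked. The promoter is printed to show the letters of the gene's own start region, from 250 bases before to 50 bases after the start site, 5′ to 3′ along the minus strand of GRCm38.p6, with CACCC in capitals. 
Gata1 promoter: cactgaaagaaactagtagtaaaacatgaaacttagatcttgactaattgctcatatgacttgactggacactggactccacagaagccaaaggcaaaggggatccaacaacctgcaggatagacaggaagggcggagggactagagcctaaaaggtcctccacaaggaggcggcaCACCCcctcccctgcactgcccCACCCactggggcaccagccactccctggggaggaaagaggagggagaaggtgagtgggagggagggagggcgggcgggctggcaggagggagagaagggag
RefSeq gave 1 promoter for Gata1 here, and whether it is that of the blood-cell first exon was not checked. Both strands were searched for each motif. CACCC, the box bound by factors of the Krüppel-like family, was found 2 times, with first bases at -74 and -52 from the start site. It was present in 57.7% of the 32544 distinct 300-base promoters of the RefSeq table, and 25.7% held at least 2 copies. TGAGTCA, the core shared by NF-E2 and AP-1, was not in this 300-base promoter and was present in 5.19% of the promoters. AGATAA, a motif of GATA factors, was not in this promoter either. It was present in 11.2%. The 80.0 kb window and its peaks were not searched for motifs. CACCC was added to the search after the sequence had been seen. A match is a run of letters and no evidence of a bound site, and whether any p45 peak covers this promoter was not analysed here.

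The 4 peaks formed a strong central pair with a weaker peak on each side. In order of rising coordinates they are called peaks A to D here. Peak A ran from 7510573 to 7511129, peak B from 7536575 to 7538082, peak C from 7538793 to 7540609 and peak D from 7552828 to 7553943. Their scores were 103.14, 1255.61, 1279.27 and 163.34. Peaks B and C differed by 23.66 in score, and both were far above the outer peaks, which differed from each other by 60.2. No spread between libraries is available against which to set these differences. From the start of peak A to the end of peak D was 43.4 kb, and the 4 peaks covered 4998 bp, or 6.25% of the window.

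**Figure D1:**
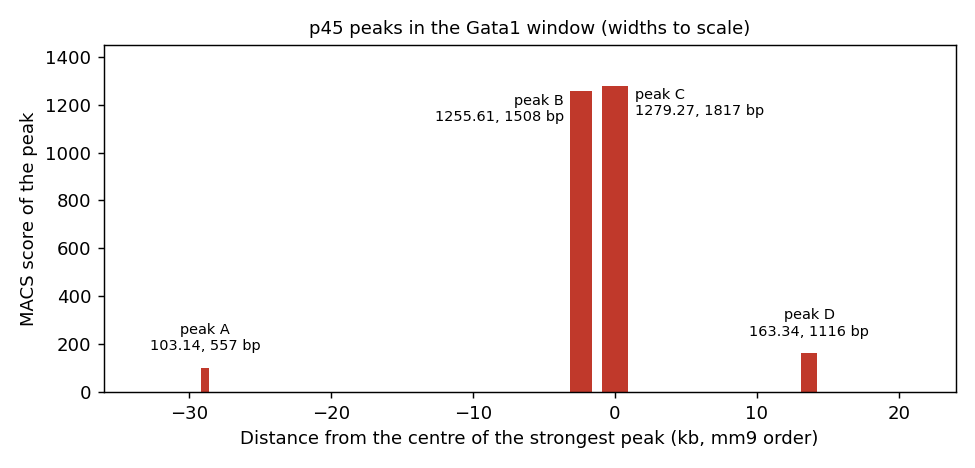
The 4 p45 peaks of the Gata1 window, with distance in kb from the centre of the strongest peak on the x axis and the authors' MACS score on the y axis, from 1 library. Each bar is as wide as its peak, and the central pair, B and C, at 1255.61 and 1279.27 stands between A at 103.14 and D at 163.34.

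Spacing was uneven. The gap between peaks B and C was 710 bp from edge to edge. Peak A lay 25.4 kb before B, and D lay 12.2 kb after C. From the central pair, peak D is on the side of higher coordinates and peak A on the side of lower coordinates. In GRCm38.p6, higher coordinates are the upstream direction of Gata1 and lower coordinates lead to Hdac6. Whether the order and strand are the same on mm9 was not checked. Where Gata1 lies among the 4 peaks was not analysed either, so no peak is placed upstream or downstream of it. The median gap between adjacent peaks was 1097 kb on chromosome X (39 gaps) and 621 kb in the whole list (1626 gaps). Gaps within an 80.0 kb window cannot reach these medians, so nothing is read from the difference. All 4 peaks had another peak within 50 kb, against 14.7% of the list, a count that the choice of an 80.0 kb window with several peaks largely fixes.

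The window's nearest neighbours in the list lay at unequal distances. The nearest peak before it, from 7342561 to 7343540, scored 80.91 over 980 bp and ended 167 kb before peak A. The nearest peak after it, from 9808465 to 9809024, scored 106 over 560 bp and began 2255 kb after peak D. Within the window itself, the 20.6 kb before peak A and the 16.1 kb after peak D held no peak. At an unknown depth, a stretch without a peak was not separated from binding below the caller's limit.

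The central pair was among the highest-scoring peaks of the whole list, while the outer peaks were not. Peak C had rank 4 and peak B rank 5 of 1651, and only 5 peaks in all reached a score of 1000. Peak D had rank 171, above 89.6% of the list, and shared its score with 1 other peak (2 peaks with 163.34 in all). By score per base of its length, its rank was 588. Peak A had rank 437, above 73.4% of the list, and its score was held by 3 peaks in all. All 4 scores were at least 100, against 27.9% of the list, and this count rests on the values that led to the choice of the window. The median score of the list was 76.44.

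On chromosome X the central pair stood alone at the top. The other 36 peaks of the chromosome scored from 51.64 to 222, with a median of 82.8, and 3 of them shared the highest value. Peaks C and B thus held ranks 1 and 2 of 40 on the chromosome. Peak D was at rank 14 and peak A at rank 18, so 11 and 14 of the other peaks on the chromosome scored above them. The outer peaks were within the range of the rest of the chromosome, and the central pair was outside it.

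Both central peaks were long as well as high. Peak C measured 1817 bp, at rank 4 by length. The 3 longer peaks scored from 60.25 to 96.02. Peak B measured 1508 bp, at rank 13 by length. Peak D measured 1116 bp, longer than 95.8% of the list, and peak A 557 bp, longer than 26.7%. The median length was 648 bp. Lengths of at least 1000 bp were reached by 3 of the 4 peaks, against 8.66% of the list and 1 of the other 36 peaks on chromosome X. Lengths on the rest of that chromosome ran from 302 to 1027 bp, with a median of 563 bp, so peaks B, C and D were its longest.

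Peak A was the shortest of the 4. At 557 bp it fell among the 434 peaks of 540 to under 590 bp, a range that also held 22 of the other 36 peaks on chromosome X. Among the 534 other peaks within 50 bp of its length, scores ran from 50.15 to 808.12 with a median of 88.7, and 198 scored higher.

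The combination of height and length was rare for the central pair. The list held 14 peaks of at least 1500 bp, and the 12 others had a median score of 76.9 and a highest score of 644.61. None of the 6 other peaks within 50 bp of the length of peak B scored as high, with a range of 50.08 to 644.61. No other peak was within 50 bp of the length of peak C. Near the length of peak D were 34 others, with scores from 51.26 to 520.78 and a median of 107, and 10 of them scored higher. Among the 15 peaks with scores of at least 500, none was longer than peak C, and only peak C was longer than peak B.

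**Figure D2:**
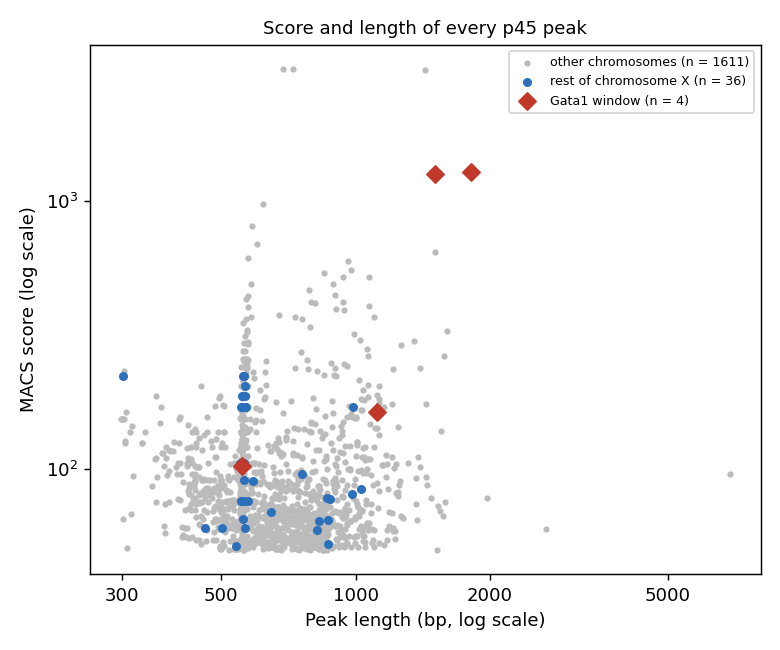
Length in bp on the x axis and MACS score on the y axis, both on log scales, for each of the 1651 p45 peaks of 1 library. Diamonds mark the Gata1 window: peaks B and C lie at the upper right with lengths of 1508 and 1817 bp, D lies among long peaks of moderate score, and A sits in the narrow column of peaks from 540 to under 590 bp.

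Peaks of similar rank were shorter than both central peaks, the longest of them only just shorter than peak B at 1508 bp. The 10 peaks nearest in rank to the central pair, at ranks 1 to 12, measured from 574 to 1506 bp with a median of 706.5 bp. The 2 peaks that tied for rank 1, both on chromosome 11 with a score of 3100, measured 689 and 724 bp. Whether 3100 is an upper limit of the caller's score was not checked, and the highest score per base among the 10 rests on it. The peak at rank 3, on chromosome 1 with a score of 3053.66, was 1429 bp long. The next after the pair, at rank 6 on chromosome 2 with a score of 974.48, was 619 bp long. None of these 10 had another peak within 10 kb, a distance at which the whole list held only 44 adjacent pairs. Another peak within 50 kb was found for 2 of the 10, against 14.7% of the list. Nothing is read from either count. Divided by peak length, the score was 0.833 per base in peak B and 0.704 in peak C, against 0.428 to 4.50 per base in those 10. The score was read as coming from a p-value for the whole peak, so this quotient is not a density of binding. By score per base, peak B was at rank 9 and peak C at rank 14 of the list. Peak A was at rank 382 and peak D at rank 588 on that measure, so the outer peaks changed places.

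As a pair of neighbours, peaks B and C had no match in the list. Adjacent peaks lay at most 10 kb apart in 44 places. In the other 43 the lower score of the pair was at most 170.29, against 1255.61 here, and the median over all 44 was 66.8. Only 3 of the others had both scores at or above 150, and their gaps were 8174, 4853 and 4991 bp. The gap of 710 bp was at rank 8 of the 44 from the shortest, where the shortest was 79 bp and the median 3757 bp. Pairs at most 1 kb apart numbered 11. Joined across its gap, the central pair spanned 4035 bp from 7536575 to 7540609, of which 3325 bp lay in the peaks. With all such neighbours joined, it was at rank 2 of 1640 regions by length, after one of 8530 bp on chromosome 11 with a highest score of 96.02.

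**Figure D3:**
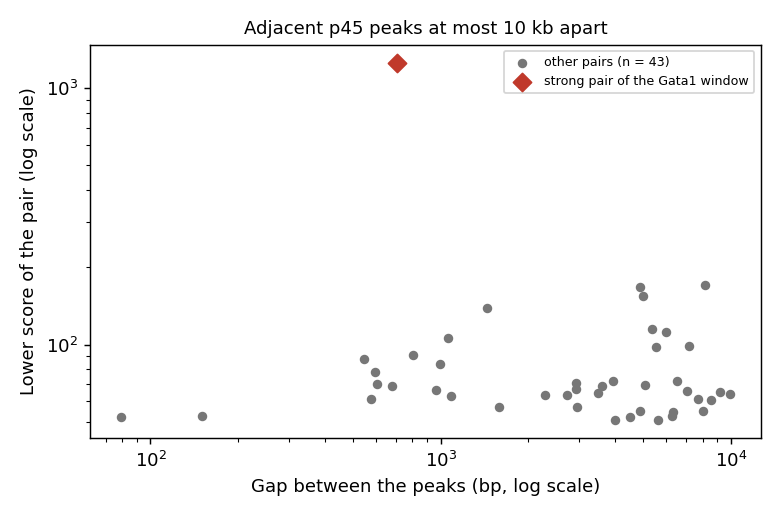
Gap in bp on the x axis against the lower score of each pair of adjacent p45 peaks at most 10 kb apart, both on log scales, from 1 library. The central pair of the Gata1 window, with a gap of 710 bp and a lower score of 1255.61, lies above all 43 others, which reach 170.29.

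Stretches where 4 or more peaks followed each other with gaps of at most 50 kb were found in 4 places. The one in the Gata1 window had scores from 103.14 to 1279.27. Its lowest peak was above the lowest of the other 3, which had lowest scores of 52.9 to 71.81, median scores of 77.64 to 90.96 and highest scores of 110.72 to 198.22. Its span of 43.4 kb was within theirs, from 15.6 to 75.7 kb. These stretches were picked with their scores known, so no test was made.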

How the data were processed

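The p45 library's peak list was the only processed file used. Per the labels' protocols, chromatin was fixed with 1% formaldehyde for 10 min and sonicated, and libraries were amplified for 15 cycles. The score of each peak is deposited by the authors in a list of 5 columns without a header (chromosome, start, end, name and score). The deposited peak names show MACS as the caller, and mm9 is the build per the submitters' processing notes. Not given in the sources used here are the aligner, the version and settings of MACS, its control and how duplicate reads were handled. Duplicates or another control would change scores, lengths and gaps. The scale of the score, 10 times −log10 of a p-value, was inferred from its values.

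Starts were read as zero-based and are printed 1-based. Ranks count down from the highest score, with ties given the lowest rank. All 4 peaks of the window are named. For comparison, the 10 peaks nearest in rank to the central pair were taken. The members, thresholds and comparisons were chosen with earlier results of these data known, and none was tested. Gene names and the promoter came from RefSeq for GRCm38.p6, with no coordinates converted: 1 of 1 gene, Gata1, matched. For want of an mm9 sequence and annotation here, 3 planned comparisons were not run: positions against exons, motifs inside the peaks and other genes of the GATA1 network. The calculations were tested on simulated data. Python 3.11.15, pandas 2.3.3, NumPy 2.4.6 and matplotlib 3.10.9 were used.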

Additional observations from a re-analysis of the deposited data

How the results depend on the processing

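The number of peaks in the window stayed at 4 when only scores from the median up, or only those of at least 100, were kept, with the window widened by 50 kb on each side and for peaks wholly inside it. These counts could not have differed, as the lowest of the 4 scores was 103.14 and the nearest peak outside lay 167 kb from peak A. All 4 peaks also lay well inside the window's edges. Ranks among peaks of score at least 100 were the same, which was certain because ranks count down from the highest score. Neither result is a check of the peaks. With ties given their mean rank, peak A was at 438 and peak D at 171.5. By score per base of length, peaks A to D were at ranks 382, 9, 14 and 588, against 437, 5, 4 and 171 by score. From centre to centre, the 3 gaps were 26477.5, 2372.5 and 13684.5 bp, and with starts read as 1-based they were 25444, 709 and 12217 bp. Alternatives on gene features and motifs in the peaks were not run. With 1 library and no tag counts, no value here has an error.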
